A study of Sus scrofa with 63 samples.

Results

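Hexose transport and fructose metabolism were followed in the fetal pig jejunum through 9 genes, SLC5A1, SLC2A1, SLC2A2, SLC2A3, SLC2A5, KHK, TKFC, GALT and GALK1. Members were all array probes whose gene name equals one of these symbols in any letter case, which gave 14 of 60305 probes and 8 of the 45222 distinct names on the array, many of which are cluster identifiers rather than genes. No probe carries the name TKFC. Jejunum RNA of 63 male fetuses was hybridised to single-colour Agilent porcine arrays, 1 fetus per array, on 8 slides. Fetuses were purebred Large White (LW), purebred Meishan (MS) or reciprocal crosses, LWMS from an LW sire and an MS sow and MSLW from an MS sire and an LW sow, taken at day 90 or day 110 of gestation. The comparisons ask how expression changed with gestational age and whether it depended on breed, on the breed of the sow or on that of the sire. At day 90 there were 9 LW, 6 MS, 9 LWMS and 8 MSLW fetuses, and at day 110 there were 9 LW, 7 MS, 9 LWMS and 6 MSLW fetuses. Per the study's methods the sows were inseminated with semen of both breeds, so that a litter could hold purebred and crossbred fetuses. The samples are pieces of whole jejunum in which epithelium, muscle and other layers contribute RNA together. The labels do not name the sow of a fetus, so litter mates were counted as independent fetuses and the p-values may be too small for that reason.

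Intestinal epithelial cells take up glucose and galactose from the lumen through SLC5A1 (SGLT1), which uses the sodium gradient, and fructose through SLC2A5 (GLUT5), and sugars leave the cell on the blood side through SLC2A2 (GLUT2). Inside the cell KHK phosphorylates fructose and TKFC acts downstream of it on glyceraldehyde, while GALK1 and GALT carry galactose into the Leloir pathway. Fructose made by the placenta is abundant in the blood of fetal pigs, and milk lactose brings glucose and galactose to the intestine after birth.

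The probes that carry the main results are shown because each value below is the signal bound to one 60-base oligonucleotide, and for some genes different oligonucleotides gave different values. They were copied from the deposited scanner files and run 5′ to 3′. KHK and GALK1 each had a single probe under their own name, SLC2A2 had 2 and a further one known by its description, and for SLC5A1 the pair that starts at bases 761 and 1932 of the transcript record is given. The capitals mark the run shared by a pair of probes, which for SLC2A5 is the whole oligonucleotide: the same sequence was printed as O11814, named SLC2A5, and as A_72_P437484, named only by a cluster identifier and described as the member 5 transporter.
KHK O9619: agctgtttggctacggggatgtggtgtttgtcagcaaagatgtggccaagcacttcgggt
SLC5A1 A_72_P488671: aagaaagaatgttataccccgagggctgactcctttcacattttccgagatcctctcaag
SLC5A1 A_72_P444300: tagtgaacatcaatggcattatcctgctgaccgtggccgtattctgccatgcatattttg
SLC2A2 O14089: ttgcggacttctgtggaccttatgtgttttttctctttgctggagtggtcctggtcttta
SLC2A5 O11814 and A_72_P437484: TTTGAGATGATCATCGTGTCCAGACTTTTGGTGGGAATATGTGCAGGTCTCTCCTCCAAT
GALK1 O12021: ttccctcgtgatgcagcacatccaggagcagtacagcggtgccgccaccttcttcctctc

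Levels are log2 background-corrected signals from which the array's 75th percentile was subtracted, called log2 relative signal here, and differences are on the log2 scale, day 110 minus day 90 or MS minus LW. Dim probes were set aside unless, in 1 group or more, 75% or more of its arrays showed them well above background. This kept 40515 probes, among them 13 of the 14 member probes. O10154, a probe of SLC2A1 seen well above background on 1 of 63 arrays, was left out. A gene with several probes is represented by its brightest tested probe, and levels of different probes were not compared. For changes with age and for MS minus LW a call needed both an adjusted p no greater than 0.01 and a log2 difference no smaller than 0.5 in either direction. Breed by age was called at 0.01 alone, and effects of the sow or sire below 0.05. The test was limma with Benjamini-Hochberg adjustment over all 40515 probes. Each SE rests on a spread estimated over all 8 groups together, not on the scatter of the groups compared.

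An array had 51.2 to 87.6% of its probes well above background, and no spot was saturated. The array of fetus 632 (MS, day 110) stood apart, with a median Spearman rho of 0.905 with the other arrays of its group, against 0.936 for the next lowest and 0.984 for the highest. Main values that this fetus moved are also given without it. The labelled tissue was checked against 10 enterocyte genes, of which 7 had a tested probe. FABP1, FABP2, ANPEP, LCT and APOA4 were well above background on all 63 arrays, ALPI on 62 and SI on 24.

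Over the mean of the 4 genotypes KHK changed most among the members, SLC5A1 followed, and SLC2A1 and SLC2A3 rose less. In that mean, 8 of the 13 tested member probes passed the test, all of them higher at day 110, beside 13.8% of all probes called and 6.07% called higher. These were the 5 probes of SLC5A1 and the probes of SLC2A1, SLC2A3 and KHK. SLC2A2, SLC2A5, GALT and GALK1 were not called in any genotype. By genotype, 1 member probe of 13 was called in LW (4.76% of all probes called, 2.23% higher), 2 in MS (3.12%, 1.62% higher), 7 in LWMS (9.86%, 4.18% higher) and 4 in MSLW (5.43%, 2.45% higher), every one higher at day 110. The probes of a gene share their transcript, so these counts lean on SLC5A1.

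**Figure D1:**
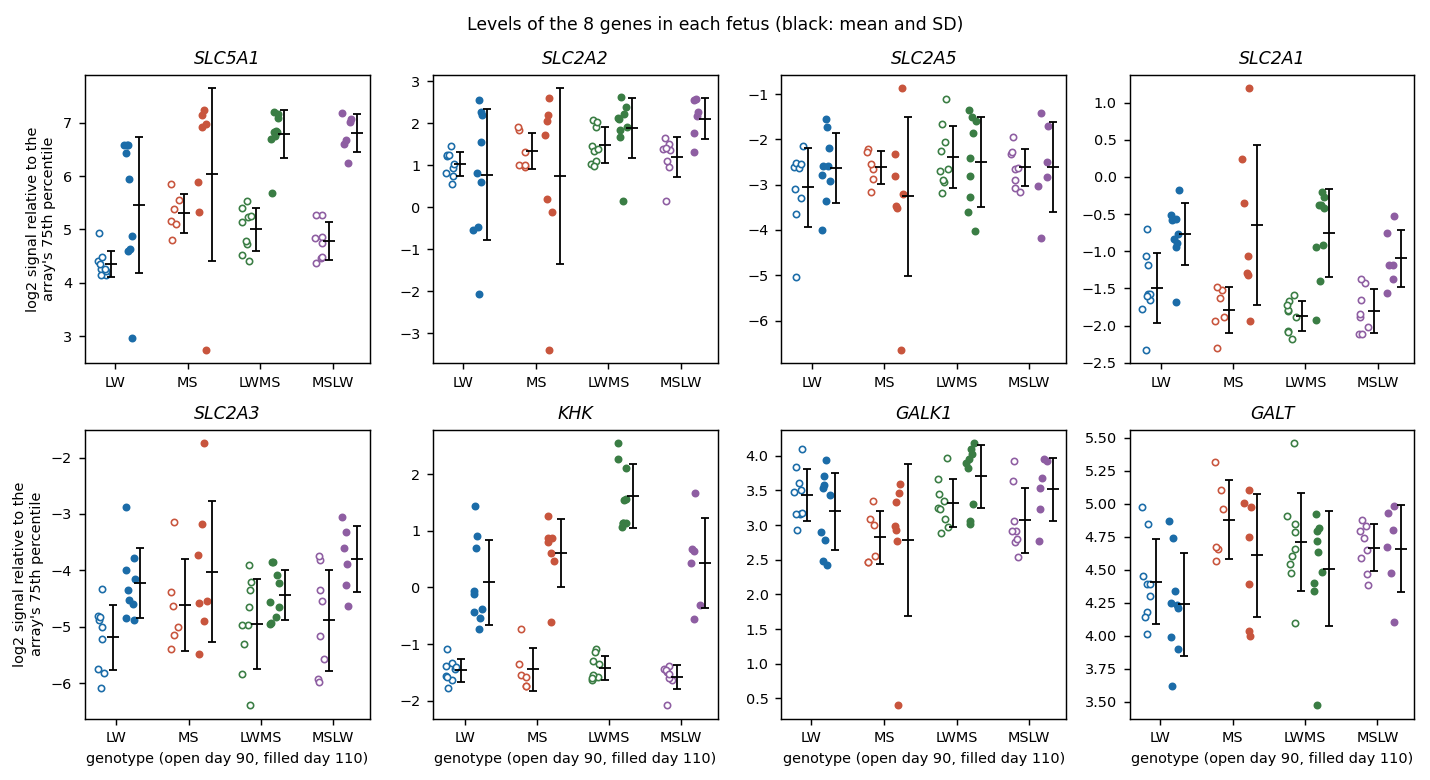
Log2 relative signal of the representative probe of each gene in the 63 fetuses, by genotype, with open points for day 90, filled points for day 110 and the mean and SD in black beside each group. The KHK points of day 110 lie above those of day 90 in each genotype, and the widest scatter of SLC5A1 and SLC2A2 is in LW and MS at day 110.

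KHK, the enzyme that commits fructose to breakdown, was low and even at day 90. Its log2 relative signal ran from -1.77 to -1.08 (median -1.44) in 9 LW fetuses, from -1.75 to -0.73 (median -1.57) in 6 MS, from -1.64 to -1.10 (median -1.54) in 9 LWMS and from -2.08 to -1.39 (median -1.51) in 8 MSLW. At day 110 it ran from -0.73 to 1.44 (median -0.12) in 9 LW fetuses, from -0.62 to 1.27 (median 0.81) in 7 MS, from 1.06 to 2.55 (median 1.54) in 9 LWMS and from -0.56 to 1.66 (median 0.54) in 6 MSLW. The ages did not overlap: the highest day 90 fetus was at -0.728 and the lowest of the 31 day 110 fetuses at -0.726. Of the 37740 tested probes with a value on all arrays, 11 had every day 110 fetus above every day 90 fetus, which is 0.0291%.

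The rise of KHK with age was 1.55 ± 0.24 (SE, limma, adjusted p = 2.81e-06) in LW, 2.06 ± 0.28 (adjusted p = 4.58e-07) in MS, 3.04 ± 0.24 (adjusted p = 6.76e-15) in LWMS and 2.01 ± 0.27 (adjusted p = 3.09e-07) in MSLW. The mean rise was 2.17 ± 0.13, or 4.49-fold (adjusted p = 4.91e-21). On each of the 8 slides the day 110 mean was above the day 90 mean, by 1.67 to 2.59. Leaving out any one fetus kept the call in each genotype.

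The genotypes did not order clearly at day 90, with means of -1.43 ± 0.21 (SD, n = 9) in LWMS, -1.45 ± 0.38 (n = 6) in MS, -1.47 ± 0.20 (n = 9) in LW and -1.58 ± 0.22 (n = 8) in MSLW. None of the 8 genes passed an adjusted p under 0.05 there in any of the 6 pairs of genotypes (limma, 6.58% of all probes called in LW against MS, 0.829% in LW against LWMS, 0.671% in LW against MSLW, 0.708% in MS against LWMS, 2.4% in MS against MSLW and 0.274% in LWMS against MSLW). At day 110 the order was LWMS at 1.61 ± 0.57 (n = 9), MS at 0.61 ± 0.60 (n = 7), MSLW at 0.43 ± 0.79 (n = 6) and LW at 0.09 ± 0.75 (n = 9). LWMS stood above each of the others. LW minus LWMS was -1.52 ± 0.24 (SE, limma, adjusted p = 1.52e-05), LWMS minus MSLW was 1.18 ± 0.26 (adjusted p = 0.0118) and MS minus LWMS was -1.001 ± 0.252 (adjusted p = 0.0261). In those pairs 10.5%, 0.664% and 1.1% of all probes were called. MS against MSLW (adjusted p = 0.840, 1.94% of all probes called), MSLW against LW (adjusted p = 0.571, 1.33%) and MS against LW (adjusted p = 0.196, 10.2%) did not pass. The pairs were compared after the levels had been seen, and were called at an adjusted p under 0.05 with no minimum difference. The SDs were 0.20 to 0.38 at day 90 and 0.57 to 0.79 at day 110. The SE of a pair pools both days, so the p-values of the day 110 pairs may be too small. Without fetus 632 MS minus LWMS was -0.80 (adjusted p = 0.147) and no longer passed, while LW minus MS went from -0.52 to -0.73 (adjusted p = 0.0445), below the 0.05 of the pairs but not called by the stricter rule set for MS minus LW.

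The breed of the sow was called for KHK, 0.47 ± 0.13 higher with an MS sow in the mean of both days (SE, limma, adjusted p = 0.00752). It was the only one of 13 member probes called for the sow, where 16% of all probes were called and 7.26% called higher. The difference held when any one fetus was left out, between 0.42 and 0.53 with a highest adjusted p of 0.0178. At day 90 the 4 group means lay between -1.58 and -1.43. At day 110 the groups of MS sows were at 1.61 (LWMS) and 0.61 (MS), those of LW sows at 0.43 (MSLW) and 0.09 (LW). The sow difference changed with age by 0.77 ± 0.26 (limma, adjusted p = 0.168). A test of the change with age across all 4 genotypes gave an adjusted p of 0.136, where 0.0913% of all probes passed an adjusted p under 0.05. The breed of the sire was not called for KHK (-0.20 ± 0.13, adjusted p = 0.421).

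A further probe, A_72_P113656, is described in the array files as isoform a of ketohexokinase but does not carry the gene's name. It was well above background on 5 of 63 arrays and was not tested. Which isoforms O9619 binds was not checked here, so the KHK values are those of this single probe. TKFC, the triokinase that phosphorylates glyceraldehyde released from fructose, can be followed only through O7493, named dak, an older symbol of that gene, and kept out of the counts. Its difference with age was 0.44 ± 0.10 (SE, limma, adjusted p = 1.79e-04) over the mean of the genotypes, which missed the minimum difference of 0.5.

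**Figure D2:**
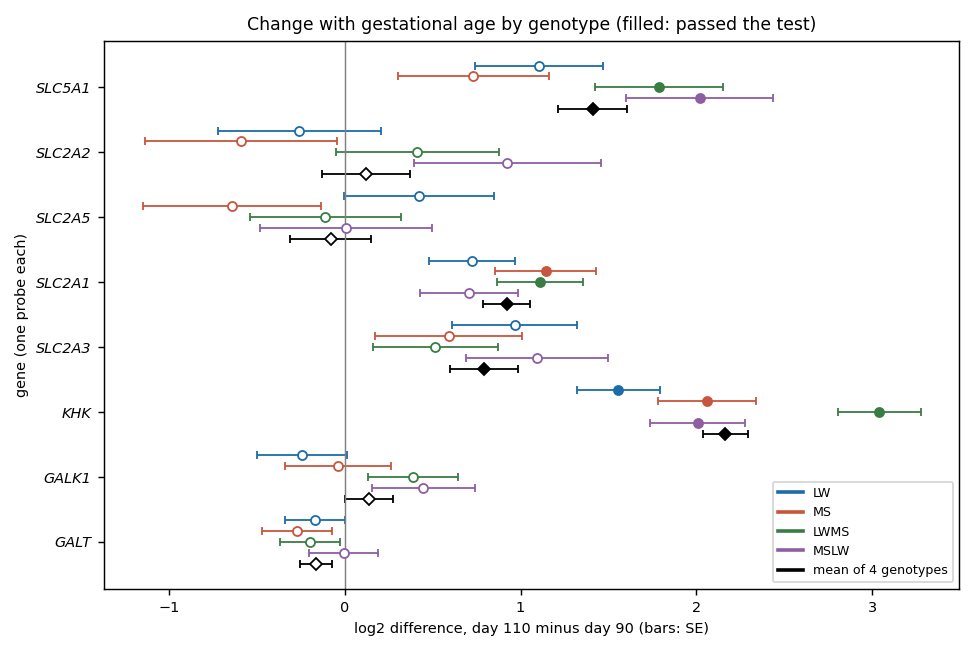
Log2 difference between day 110 and day 90 with its SE for the representative probe of each gene, in each genotype (colours) and over the mean of the 4 genotypes (black), with filled symbols where the test was passed. KHK was called in 4 of 4 genotypes, SLC5A1 in LWMS and MSLW, and SLC2A1 in MS and LWMS.

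SLC5A1, the sodium-coupled carrier of glucose and galactose, rose with age over the mean of the genotypes by 1.41 ± 0.20, or 2.66-fold (SE, limma, adjusted p = 4.04e-08). Its log2 relative signal at day 90 ran from 4.14 to 4.92 (median 4.26) in LW, from 4.80 to 5.84 (median 5.26) in MS, from 4.40 to 5.53 (median 5.14) in LWMS and from 4.36 to 5.27 (median 4.79) in MSLW. At day 110 it ran from 2.96 to 6.58 (median 5.94) in LW, from 2.73 to 7.25 (median 6.92) in MS, from 5.69 to 7.19 (median 6.82) in LWMS and from 6.24 to 7.19 (median 6.85) in MSLW. In both crosses each day 110 fetus lay above each day 90 fetus of its genotype. How many of all probes do so within a genotype was not counted. In LW and MS the ages overlapped, since 2 day 110 fetuses fell below every day 90 fetus while 24 of the 31 lay above all of them.

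SLC5A1 rose by 1.79 ± 0.36 (SE, limma, adjusted p = 2.16e-04) in LWMS and by 2.02 ± 0.42 (adjusted p = 5.48e-04) in MSLW. The difference was 1.11 ± 0.36 in LW (adjusted p = 0.0379) and 0.73 ± 0.43 in MS (adjusted p = 0.342), neither past the threshold. Without fetus 632 the MS difference was 1.28 (adjusted p = 0.0162), still not called, and with array weights it was 1.56 (adjusted p = 9.38e-05) and called. Without fetus 632 the LW difference passed (1.11, adjusted p = 0.00676), as it did without LW day 110 fetus 575 (1.42, adjusted p = 0.00313). Among genotype pairs at day 110, SLC5A1 was called in LW minus LWMS, at -1.32 ± 0.36 (adjusted p = 0.0137), and in no other pair. Without fetus 632 it was also called in LW minus MSLW, at -1.34 (adjusted p = 0.0183) against an adjusted p of 0.0797 with it. LW minus MS was then -1.12 (adjusted p = 0.0161) against -0.57 (adjusted p = 0.400), below the 0.05 of the pairs but not called by the stricter rule set for MS minus LW. At day 110 the SD of SLC5A1 was 1.27 in LW and 0.45 in LWMS, against 0.24 and 0.40 at day 90. The pooled SE may thus be too small for pairs with LW at day 110. The change with age was not shown to differ between genotypes (adjusted p = 0.771). Day 110 exceeded day 90 on each of the 8 slides, by 0.90 to 2.11.

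The 5 probes of SLC5A1 rose together in the mean of the genotypes but not by the same amount. The upstream pair, starting at bases 761 and 1932 of the transcript record, rose by 1.42 ± 0.21 and 1.41 ± 0.20. The downstream probes, starting at bases 3500, 3545 and 3620, rose by 1.06 ± 0.23, 1.03 ± 0.23 and 1.03 ± 0.23 (limma, adjusted p between 2.04e-04 and 2.28e-04). Within a fetus, the mean of the upstream pair minus the mean of the downstream probes changed by 0.377 with age (n = 63, 2-sided permutation of age within genotype, 100000 draws, p = 3e-05). This change was 0.70 in LW, 0.21 in MS, 0.23 in LWMS and 0.37 in MSLW. The comparison was chosen after the probe values had been seen. In LW the upstream pair differed by 1.19 and 1.11 and the downstream probes by 0.43 to 0.45. In MSLW 3 of the 5 probes were called, the others having an adjusted p of 0.0112 and 0.0125. Without fetus 632 all 5 were called in MSLW, with adjusted p of 0.0012 and 0.00183 for these, and the upstream pair was called in LW.

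**Figure D3:**
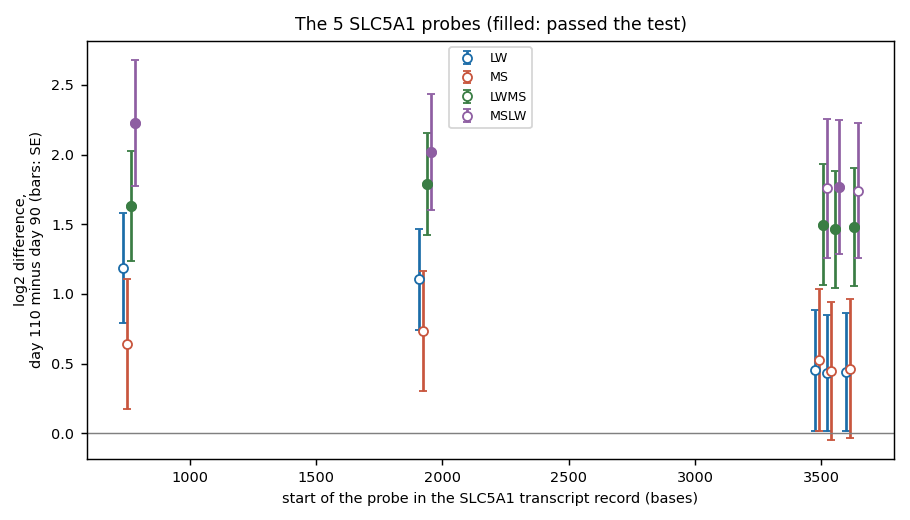
Log2 difference between day 110 and day 90 with its SE for each of the 5 SLC5A1 probes, placed by the start of the probe in the transcript record in bases (points of the genotypes are shifted sideways for legibility), filled where the test was passed. The LW points drop from 1.19 and 1.11 for the upstream pair to between 0.43 and 0.45 for the downstream probes.

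SLC2A2, the carrier through which hexoses leave the epithelial cell, was not called for age in any genotype. Its log2 relative signal at day 90 ran from 0.55 to 1.46 (median 1.03) in LW, from 0.95 to 1.91 (median 1.16) in MS, from 0.99 to 2.08 (median 1.39) in LWMS and from 0.14 to 1.65 (median 1.37) in MSLW. At day 110 it ran from -2.08 to 2.56 (median 0.82) in LW, from -3.41 to 2.60 (median 1.71) in MS, from 0.15 to 2.62 (median 2.09) in LWMS and from 1.32 to 2.58 (median 2.22) in MSLW. Of the 31 day 110 fetuses 14 lay above every day 90 fetus and 5 below every one, all 5 of them purebred. The mean difference was 0.12 ± 0.25 (SE, limma, adjusted p = 0.741), with -0.26 ± 0.46 in LW, -0.59 ± 0.55 in MS, 0.41 ± 0.46 in LWMS and 0.92 ± 0.53 in MSLW. Single fetuses set the sign in both pure breeds, since the difference was 0.10 in MS without fetus 632 and 0.0984 in LW without fetus 575, and the mean was 0.30 (adjusted p = 0.261) without fetus 632. At day 110 LW minus LWMS was -1.12 (adjusted p = 0.105), which fell below the 0.05 of the pairs without fetus 632 (adjusted p = 0.0376). The second probe of SLC2A2 gave a mean difference of -0.01 ± 0.29 and correlated with the brightest at r = 0.983 over the 63 arrays. A_72_P087211, described as the member 2 transporter but not named SLC2A2, had r = 0.959 with the brightest and a mean difference of -0.14 ± 0.31 (adjusted p = 0.752). Without fetus 632 these means were 0.22 (adjusted p = 0.424) and 0.12 (adjusted p = 0.698). The sign of the mean thus differed between probes with all fetuses, and none was called.

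SLC2A5, the fructose carrier, was well above background on 61 of 63 arrays and was not called for age in any genotype. Its log2 relative signal ran from -5.03 to -1.10 (median -2.64) in the 32 day 90 fetuses and from -6.66 to -0.86 (median -2.78) in the 31 day 110 fetuses. The mean difference was -0.08 ± 0.23 (SE, limma, adjusted p = 0.821), with 0.42 ± 0.43 in LW, -0.64 ± 0.51 in MS, -0.11 ± 0.43 in LWMS and 0.01 ± 0.49 in MSLW. Leaving out 1 fetus at a time gave 0.18 to 0.59 in LW. The MS value was -0.0754 without fetus 632, which was at -6.66, and the mean was then 0.0616. The copy of this oligonucleotide under the other name gave a mean difference of -0.05 ± 0.22 and r = 0.929 with it over the 63 arrays, and the difference was 0.0946 without fetus 632. A_72_P343093, another probe described as the member 5 transporter, had r = -0.04 with O11814. Its mean difference was 0.48 ± 0.10 (adjusted p = 9.79e-05), under the minimum of 0.5, so probes described as SLC2A5 disagreed.

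SLC2A1 (GLUT1), a carrier of many cell types that meets basal glucose needs, rose by 0.92 ± 0.13, or 1.89-fold, over the mean of the genotypes (SE, limma, adjusted p = 7.15e-08). Its log2 relative signal at day 90 ran from -2.33 to -0.70 (median -1.58) in LW, from -2.30 to -1.48 (median -1.76) in MS, from -2.18 to -1.59 (median -1.80) in LWMS and from -2.12 to -1.38 (median -1.86) in MSLW. At day 110 it ran from -1.69 to -0.18 (median -0.77) in LW, from -1.94 to 1.20 (median -1.07) in MS, from -1.92 to -0.20 (median -0.42) in LWMS and from -1.56 to -0.52 (median -1.18) in MSLW. The ages overlapped in each genotype, with 13 of 31 day 110 fetuses above every day 90 fetus.

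SLC2A1 rose by 1.11 ± 0.24 in LWMS (SE, limma, adjusted p = 5.80e-04) and by 1.14 ± 0.29 in MS (adjusted p = 0.00699). The difference was 0.72 ± 0.24 in LW (adjusted p = 0.0429) and 0.71 ± 0.28 in MSLW (adjusted p = 0.0870). In MS it was 0.84 (adjusted p = 0.0335) without fetus 632, whose level of 1.20 was the highest of all, and was 0.996 to 1.12 (adjusted p between 0.0160 and 0.0257) without any of day 110 replicates 1 and 2 or day 90 replicates 1, 4 and 6, so this call rested on single fetuses.

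SLC2A3 (GLUT3), a high-affinity carrier best known from neurons, was near background, being well above it at day 90 on 5 of 9 LW, 6 of 6 MS, 4 of 9 LWMS and 5 of 8 MSLW arrays and at day 110 on 5 of 9 LW, 6 of 7 MS, 9 of 9 LWMS and 5 of 6 MSLW arrays. Its log2 relative signal had a median of -4.96 at day 90 (-6.39 to -3.14) and of -4.25 at day 110 (-5.48 to -1.74). It rose by 0.79 ± 0.19 over the mean of the genotypes (SE, limma, adjusted p = 7.03e-04) and was called in no single genotype, where differences ran from 0.52 to 1.09. Leaving out 1 fetus at a time brought them as low as 0.21 in MS and 0.34 in LWMS. With normexp background correction the mean difference was 0.35 and with the authors' log2 values 0.41, both under the minimum of 0.5.

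GALK1 and GALT, the kinase and the uridylyltransferase of the Leloir pathway, were not called for age. GALK1 ran from 2.46 to 4.10 (median 3.16) at day 90 and from 0.40 to 4.19 (median 3.46) at day 110, with fetus 632 the lowest, and its mean difference was 0.14 ± 0.14 (SE, limma, adjusted p = 0.456), or 0.24 (adjusted p = 0.0781) without that fetus. GALT ran from 4.01 to 5.46 (median 4.66) at day 90 and from 3.47 to 5.10 (median 4.49) at day 110, with a mean difference of -0.16 ± 0.09 (adjusted p = 0.164). In both genes the ages overlapped, since 1 day 110 fetus of GALK1 and none of GALT lay above every day 90 fetus and 2 and 5 lay below every one.

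No member probe was called for MS minus LW at day 90 (0 of 13, limma, 3.58% of all probes called, 4 members and 18% of all probes at an unadjusted p under 0.05) or at day 110 (0 of 13, 5% of all probes called, 2 members and 23.3% of all probes at an unadjusted p under 0.05). GALK1 differed by -0.62 ± 0.29 (SE, adjusted p = 0.224) at day 90, with 9 LW fetuses from 2.93 to 4.10 and 6 MS fetuses from 2.46 to 3.35. GALT differed by 0.47 ± 0.19 (adjusted p = 0.146), and SLC5A1 by 0.95 ± 0.41 (adjusted p = 0.180). In each of these 3 genes the breeds overlapped. The interaction of breed and age called none of 13 either, with 0.0173% of all probes called, and 0 members and 6.61% of all probes at an unadjusted p under 0.05.

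With limma array weights, which give arrays that fit their group poorly less influence, MS minus LW at day 110 was called for the 5 SLC5A1 probes, at 1.54 (adjusted p = 9.11e-05) for the brightest, and for GALT at 0.64 (adjusted p = 0.0019). Of all probes 15.7% were called in that fit, against 5% in the main fit. Over the alternatives tried, the count at day 110 was 0 to 6. For the breed of the sow, leaving out fetus 632 added the 5 SLC5A1 probes to KHK, at 0.57 for the brightest (adjusted p = 0.00822) against 0.43 ± 0.20 (adjusted p = 0.130) with it. The breed of the sire called no member probe (0 of 13, 6.95% of all probes called, 2 members and 18.9% of all probes at an unadjusted p under 0.05), with GALK1 at -0.37 ± 0.14 (adjusted p = 0.101) and GALT at 0.24 ± 0.09 (adjusted p = 0.119). With an MS sire GALT was called higher and GALK1 lower under the authors' log2 values, quantile normalization and array weights, GALT alone with slide as a block, and the 5 SLC5A1 probes higher under array weights as well. For the sire 7.42% of all probes were called with the authors' values and 6.63% with quantile normalization. With array weights the share was 15.5% and with slide as a block 8.51%. The interactions of sow and of sire with age called no member probe, with 0.388% and 0% of all probes called. At an unadjusted p under 0.05 were 1 and 0 of 13, beside 10.9% and 1.77% of all probes.

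Crossbred fetuses were set against purebred fetuses after their levels had been seen. Over both days SLC5A1 was 0.55 ± 0.20 (SE, limma, adjusted p = 0.288) and SLC2A2 0.70 ± 0.25 (adjusted p = 0.292) above in crosses, and neither passed. No member probe did (0 of 13, 0.18% of all probes called), though 9 of 13 had an unadjusted p under 0.05, beside 10.2% of all probes. The change with age differed between crosses and purebreds by 0.98 ± 0.39 in SLC5A1, 1.09 ± 0.50 in SLC2A2 and 0.72 ± 0.26 in KHK (adjusted p = 0.685 for each), with 0 of 13 called, 9 of 13 at an unadjusted p under 0.05 beside 7.11% of all probes, and 0% of all probes called.

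KHK also differed more from fetus to fetus at day 110. The mean absolute deviation from the group median in KHK was 0.167 at day 90 and 0.487 at day 110, a difference of 0.32 ± 0.09 (SE, limma on the deviations, adjusted p = 0.0301), and the SD was larger at day 110 in 4 of 4 genotypes. KHK was the 1 gene of 8 called, where 3.18% of all probes were called larger at day 110. For SLC2A2 the deviation was 0.300 and 0.876 (adjusted p = 0.0752) and for SLC5A1 it was 0.259 and 0.665 (adjusted p = 0.169), and neither passed. Without fetus 632 the difference in KHK was 0.27 (adjusted p = 0.0491). This test too was chosen after the levels had been seen.

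Within groups, some members moved together from fetus to fetus. Deviations from the group mean were correlated for the 28 pairs of the 8 genes over 63 fetuses, with 2-sided p from 100000 permutations within groups, of which 1e-05 is the smallest possible. Of the pairs, 12 passed an adjusted p under 0.05, 8 positive and 4 negative, and all 12 also passed with slide means removed. The closest was SLC5A1 with SLC2A2, with r = 0.936 (rho = 0.814, permutation p = 1e-05, adjusted p = 4e-05), r = 0.673 in the 32 day 90 fetuses and 0.962 in the 31 of day 110. Leaving out the 2 fetuses farthest from the median of SLC5A1 gave r = 0.877.

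GALK1 followed both of these carriers, with r = 0.747 (rho = 0.629, adjusted p = 4e-05) for SLC5A1 and 0.730 (rho = 0.593, adjusted p = 4e-05) for SLC2A2, or 0.596 and 0.563 without the 2 extreme fetuses. GALT and GALK1 were related to each other with r = 0.634 (rho = 0.664, adjusted p = 4e-05). GALT followed the carriers with r = 0.653 (rho = 0.678, adjusted p = 4e-05) and 0.662 (rho = 0.663, adjusted p = 4e-05). SLC2A1 ran the other way, with r = -0.650 for SLC2A2 (rho = -0.625, adjusted p = 4e-05), -0.535 for SLC5A1 (rho = -0.404, adjusted p = 0.00361, r = -0.364 without fetus 632), -0.511 for GALT (rho = -0.489, adjusted p = 8.75e-04) and -0.549 for GALK1 (rho = -0.424, adjusted p = 0.00140). KHK was less tied to them, with r = 0.409 for SLC5A1 (rho = 0.288, adjusted p = 0.0333), 0.380 for GALK1 (rho = 0.299, adjusted p = 0.0333) and 0.328 for SLC2A2 (permutation adjusted p = 0.105). By rho KHK with SLC5A1 and with GALK1 did not pass (permutation adjusted p = 0.0823 and 0.0632), and without the 2 extreme fetuses r of KHK with SLC5A1 was 0.298. KHK with GALT gave r = 0.323 (permutation adjusted p = 0.0528), which did not pass, while rho = 0.328 (adjusted p = 0.0351) and r = 0.336 with slide means removed (adjusted p = 0.0412) did. SLC2A1 with SLC2A5 gave r = 0.190 (permutation adjusted p = 0.529) but rho = 0.414 (adjusted p = 0.00636), and r = 0.605 without the 2 extreme fetuses. Split by age, r of KHK was -0.114 at day 90 and 0.474 at day 110 with SLC5A1, -0.156 and 0.384 with SLC2A2, and 0.162 and 0.436 with GALK1. For SLC2A1 with SLC5A1 it was -0.200 and -0.600. Without fetus 632 r was 0.562 for SLC2A1 with SLC2A5, 0.244 for KHK with GALK1 and 0.184 for KHK with SLC2A2.

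**Figure D4:**
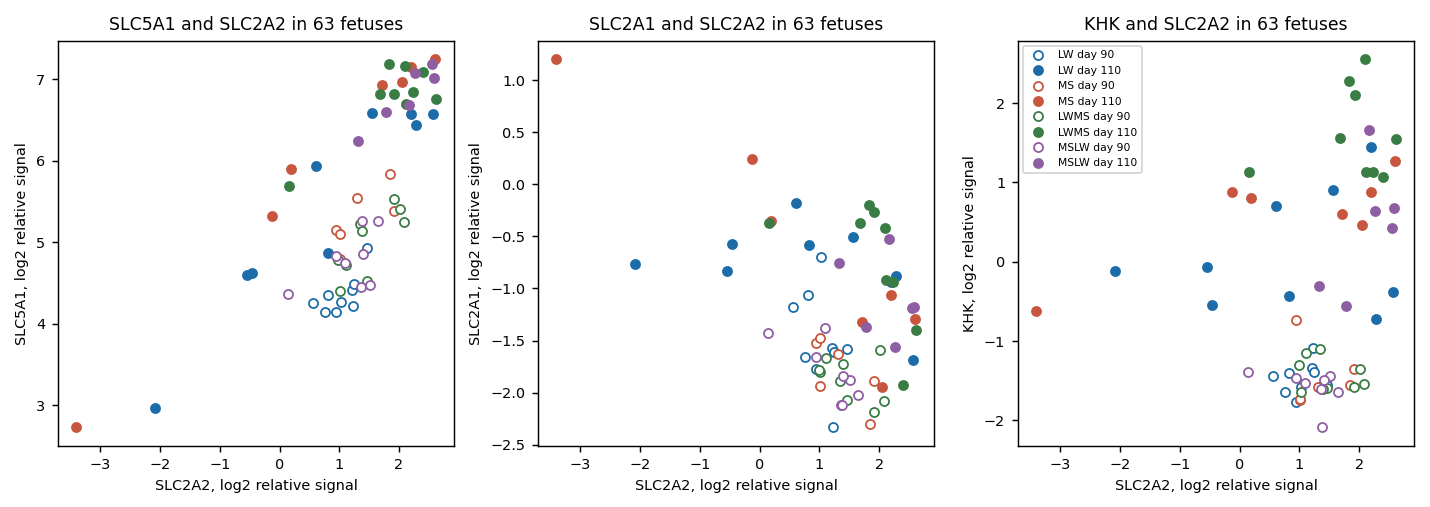
Log2 relative signal of SLC5A1, SLC2A1 and KHK against that of SLC2A2 in the 63 fetuses, coloured by genotype, open for day 90 and filled for day 110. SLC5A1 climbs with SLC2A2 (within-group r = 0.936), SLC2A1 declines (r = -0.650), and the day 110 points of KHK all lie above those of day 90. In SLC2A2, 5 day 110 fetuses lie below and 14 above every day 90 fetus, so these have no day 90 point at their level.

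The 5 day 110 fetuses below every day 90 fetus in SLC2A2 were MS fetuses 632 and 623 and LW fetuses 575, 572 and 559. They were picked by SLC2A2, so low values of genes close to it over the arrays carry no separate weight. In fetus 632 SLC2A2 was at -3.41, SLC5A1 at 2.73, GALK1 at 0.40 and KHK at -0.62. In fetus 575 they were at -2.08, 2.96, 2.43 and -0.12. FABP2, a fatty acid binding protein of enterocytes and one of the genes closest to SLC2A2 over the arrays, was at 0.20 in fetus 632, 2.28 in fetus 575, 3.65 in fetus 572, 3.96 in fetus 559 and 4.49 in fetus 623, against 5.05 to 7.12 over the 32 day 90 fetuses. Over all 7 tested enterocyte genes the log2 of the summed signal was 4.76 in fetus 632 and 7.01 in fetus 575, below every day 90 fetus. It was 7.79, 7.40 and 8.15 in fetuses 572, 559 and 623, inside the day 90 range of the 4 genotypes together. Fetus 559 was below the LW day 90 range of 7.49 to 8.25. The day 110 medians of this sum were 8.89 in LW and 9.11 in MS. DES, the desmin of muscle, was at 7.12, 6.85, 6.59, 6.59 and 6.50 in these fetuses, above the day 110 medians of 6.19 in LW and 6.28 in MS, with fetuses 632 and 575 the highest of their groups. The log2 of the summed signal of 5 smooth muscle genes was 8.55, 8.43, 8.29, 8.19 and 8.15, against medians of 7.78 in LW and 7.73 in MS at day 110 and ranges of 7.89 to 8.56 in LW and 7.76 to 8.42 in MS at day 90. Such levels were not limited to these 5 fetuses. LW day 110 fetus 557 had an enterocyte sum of 7.59 and a smooth muscle sum of 8.12.

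By group, the summed signal of the enterocyte genes ran from 7.49 to 8.25 in LW, 7.94 to 8.78 in MS, 7.79 to 8.60 in LWMS and 7.27 to 8.31 in MSLW at day 90. At day 110 it ran from 7.01 to 9.71 in LW, 4.76 to 9.73 in MS, 8.26 to 9.90 in LWMS and 8.36 to 10.05 in MSLW. The part of these marker levels in the members' differences was not tested, and in such tissue fewer cells of a type and less RNA per cell cannot be told apart. KHK lay above every day 90 fetus in all 31 day 110 fetuses. That the 5 fetuses low in SLC2A2 are among them follows from this and does not bear on the marker levels. Of the 7 enterocyte genes FABP1, ALPI, LCT and SI rose and ANPEP fell in the mean of the genotypes. For these and the following lists, 13.8% of all probes were called and 6.07% called higher. The 5 smooth muscle genes had 0 risen and 1 fallen (ACTA2), the 5 neuron and glia genes 0 and 2, the 5 endothelial genes 0 and 0, the 5 leukocyte genes 1 and 0, the 5 proliferation genes 0 and 1, the 3 goblet genes 2 and 0, the 3 stem cell genes 0 and 0, and the 3 erythroid genes 0 and 2.

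The genes whose levels were most like those of each member over the 63 arrays were taken from all tested probes with a symbol of the pig RefSeq list, as a description across samples that share age and tissue. For SLC2A2 they were APOA4 (r = 0.948), MME (0.942) and FABP2 (0.939), and for SLC5A1 GNA11 (0.929), SLC9A3R1 (0.928) and SLC46A1 (0.926). For KHK they were SMPD3 (0.920), DPP4 (0.912) and GAL3ST1 (0.909), and for SLC2A1 ADAM15 (0.891), PLAC9 (0.848) and STAT6 (0.833). For GALK1 they were PDXK (0.892), SDSL (0.864) and SLC39A5 (0.854), and for GALT NR1H3 (0.806), NIT1 (0.800) and FTL (0.798). The closest to SLC2A5 was HABP2 (0.661), then ALDH1A1 (0.653) and PRKAB2 (0.622). SLC2A3 had the loosest partners, ADAM10 (0.596), STXBP6 (0.564) and NUMB (0.561).

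Other genes of sugar handling changed with age beside the members, and the median over all tested probes was -0.02. In this mean of the genotypes 13.8% of all probes were called and 6.07% called higher. Of 4 tested sodium-coupled carriers related to SLC5A1, 3 rose and 1 fell (list median 1.21). SLC5A10 rose by 2.37 ± 0.24 (SE, limma, adjusted p = 2.47e-12), SLC5A4 by 1.67 ± 0.21 and SLC5A9 by 0.76 ± 0.15, while the inositol carrier SLC5A11 fell by 1.002 on the log2 scale (SE 0.23, adjusted p = 4.54e-04). Of 7 other facilitative carriers only SLC2A6 rose, by 0.69 ± 0.22 (adjusted p = 0.00946), and none fell (median 0.18). None of the 5 genes of the sodium pump and the carriers' anchors passed (median 0.22).

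In hexose phosphate handling 2 of 7 genes rose and none fell (median 0.17), beside 13.8% of all probes called and 6.07% called higher. G6PC, the catalytic subunit that frees glucose from glucose 6-phosphate, rose by 5.08 ± 0.25 (SE, limma, adjusted p = 3.40e-24) and was called in each genotype, from 3.32 in LW to 6.45 in LWMS, and the hexokinase HK2 by 0.53 ± 0.10 (adjusted p = 1.99e-05). Among 9 genes of fructolysis and the polyol pathway 1 rose and 1 fell, beside the same 13.8% of all probes. SORD, which makes fructose from sorbitol, rose by 0.67 ± 0.17 (adjusted p = 0.00121), and PFKFB1, which sets the level of fructose 2,6-bisphosphate, fell by 1.45 (SE 0.21, adjusted p = 9.40e-08).

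Of 6 galactose genes beside GALK1 and GALT, PGM1 rose by 0.87 ± 0.23 (SE, limma, adjusted p = 0.00194) and B4GALT1, whose protein is part of lactose synthase in the mammary gland, fell by 0.91 (SE 0.08, adjusted p = 7.90e-15), with a list median of -0.01. In the list of carbohydrate sensing through ChREBP, 2 of 5 genes fell and none rose (median -0.36). Both lists stand beside 13.8% of all probes called and 6.07% called higher. TXNIP fell by 0.82 (SE 0.09, adjusted p = 3.09e-11) and ARRDC4 by 1.07 (SE 0.13, adjusted p = 1.07e-09), both arrestin-family genes responsive to glucose. MLXIPL, which encodes ChREBP itself, was at 0.12 ± 0.16 (adjusted p = 0.604).

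**Figure D5:**
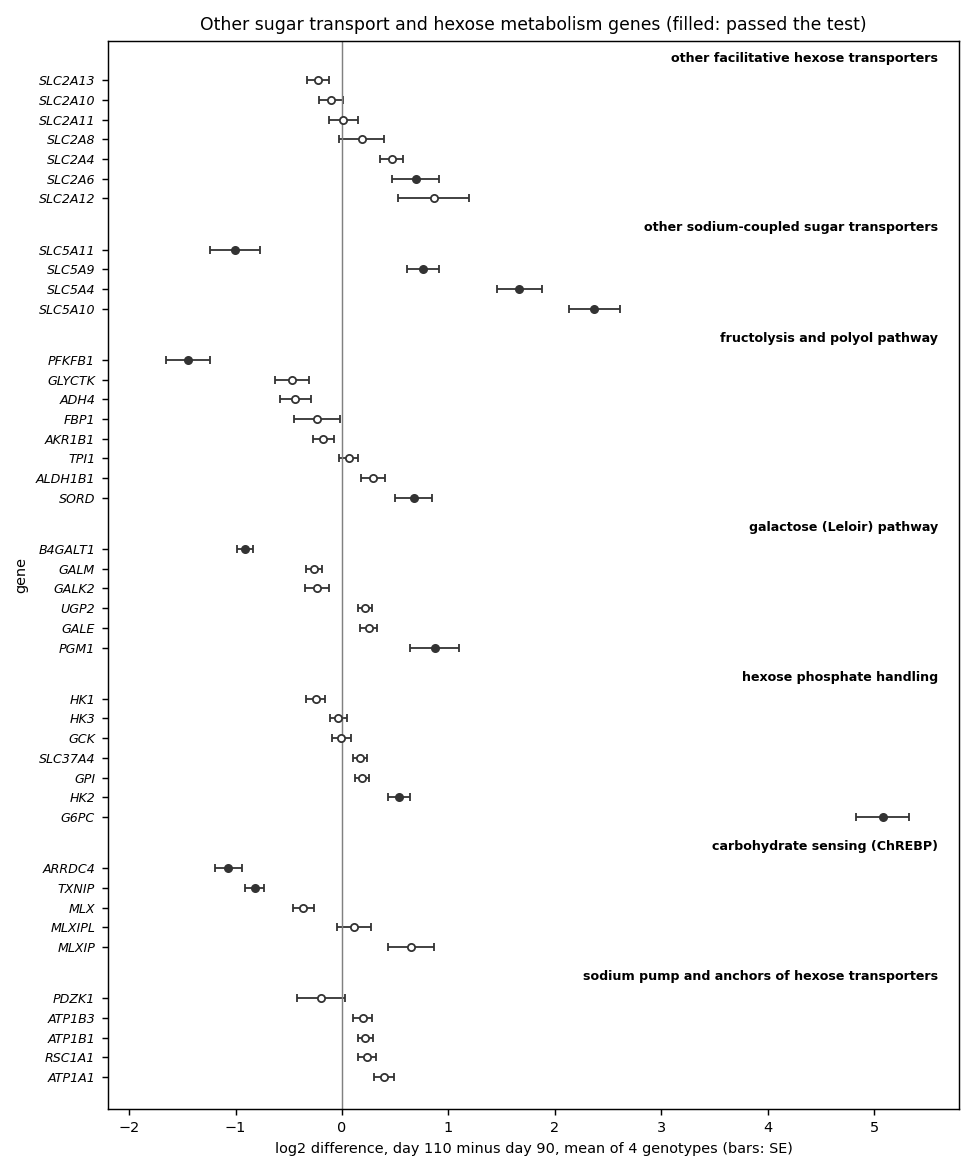
Log2 difference between day 110 and day 90 over the mean of the 4 genotypes, with its SE, for tested genes of 7 lists of sugar transport and hexose metabolism, 1 gene left out, filled where the test was passed. G6PC lies farthest to the right at 5.08 and PFKFB1 farthest to the left at -1.45.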

How the data were processed

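Jejunum RNA of 63 fetuses was measured on single-colour Agilent arrays. The authors deposited the output of Agilent Feature Extraction (10.10.1.1 per the submitters' processing notes) as linear spot intensity, and a table of log2 values for 39446 probes, whose columns correlated at r = 0.993 to 1.000 with the log2 median spot signal of the same array. Per the study's methods that table was normalized and then log2-transformed. Its centring is not stated, its column medians are 8.61, and it served as an alternative.

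Each array's 75th percentile was subtracted from the log2 of its background-corrected intensities. Of 61625 spots 1319 were controls and were left out, outlier spots were set to missing and spots of a probe were averaged. A filter of 75% of the arrays of at least 1 group left 40515 of 60305 probes, and it sets how many tests the adjustment covers. Background subtraction makes changes near the floor uncertain. The means of 8 groups were fitted with limma 3.58.1 in R 4.3.3, with p-values adjusted by Benjamini-Hochberg over all probes tested, 2-sided. Correlations used numpy 2.4.6 in Python 3.11.15. The sow, a random term in the study's model, was not a term here. Tests were tried on simulated data.

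The members and gene lists were chosen with earlier results of these data known. Named were all member probes, from each list up to 3 genes with the largest rise and 3 with the largest fall among those called in the mean of genotypes, and the 3 genes closest to each member, besides MLXIPL and single fetuses, which were chosen after their values were seen. The values of 1 listed gene, and the median of its list, are not reported here. Gene names are those of the array files, and symbols for likeness are in the RefSeq list of pig assembly Sscrofa11.1. Alternatives were normexp with an offset of 50, the authors' log2 values, quantile normalization, median centring, other filters, slide as a block, array weights, omission of LW fetuses 484 and 469, purebreds alone, no minimum difference, the mean of a gene's probes, and each fetus left out in turn. The pairs of genotypes, crossbred against purebred, the spread and the SLC5A1 probes were compared after seeing the data.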

Additional observations from a re-analysis of the deposited data

Results flagged for a closer look

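In 10 of 64 sets of fetuses (8 genes in 8 groups) the highest or lowest fetus stood farther from the next one than the critical value of Dixon's test allows, while chance gives about 1 in 20 sets. In MS fetuses at day 110, fetus 632 was the lowest in SLC5A1 at 2.73 (next 5.33), in KHK at -0.62 (next 0.47) and in GALK1 at 0.40 (next 2.76). In LWMS fetuses at day 110, fetus 609 was the lowest in SLC5A1 at 5.69 (next 6.70), in SLC2A2 at 0.15 (next 1.68) and in GALT at 3.47 (next 4.34). The others were single genes. Among LW fetuses, fetus 500 was the highest of day 90 in SLC5A1 at 4.92 and fetus 854 the lowest of day 110 in SLC2A1 at -1.69. Among MSLW fetuses of day 90, fetus 899 was the lowest in SLC2A2 at 0.14 and fetus 498 in KHK at -2.08.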

How the results depend on the processing

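Counts of member probes called that moved by 1.5 times or more are given first. With limma array weights the count was 2 in LW, 6 in MS and 6 in MSLW for age, 1 for MS minus LW at day 90 (GALK1 lower) and 6 at day 110, 7 for the sow, 1 for the sow by age (KHK), 7 for the sire (5 SLC5A1 probes, GALT and GALK1) and 3 for crossbred minus purebred (GALK1, SLC2A2 and KHK higher). The shares of all probes called rose in that fit too. They were 8.31% in LW, 10.6% in MS and 9.05% in MSLW for age, and 6.98% and 15.7% for MS minus LW at day 90 and day 110. For the sow 32.6% were called, for the sow by age 1.68%, for the sire 15.5% and for crossbred minus purebred 1.77%. Without the filter on dim probes the member count was 1 in MS and 4 in LWMS, with slide as a block 4 in LWMS and 1 for the sire, with purebred fetuses alone 1 in MS, with the authors' log2 values 6 in MSLW and 2 for the sire, with quantile normalization 2 for the sire, and with probes well above background on all arrays 6 in MSLW. In the same order, the shares of all probes were 1.69% and 5.85% without the filter, 9.99% and 8.51% with slide as a block and 1.66% with purebreds alone. They were 6.16% and 7.42% with the authors' values, 6.63% with quantile normalization and 6.59% with probes well above background on all arrays. Leaving out 1 fetus at a time gave 1 to 3 in LW, 1 to 2 in MS, 4 to 7 in LWMS, 3 to 6 in MSLW, 8 to 8 in the mean of genotypes and 1 to 6 for the sow, and 0 to 0 elsewhere. Smaller moves were 3 in MSLW with median centring, no filter or slide as a block, 5 there with normexp or quantile normalization, 6 in LWMS with quantile normalization or median centring, and 7 in the mean with normexp, the authors' values or probes well above background on all arrays. The cause was not tested.

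Under the named settings and without fetus 632, signs turned 21 times, in no called value. When each fetus was left out in turn, 8 of 59 values turned sign at least once, none of them called, among them SLC2A2 for age in LW (0.0984 without fetus 575). For age in MS these were GALK1 (0.56 with array weights, 0.36 without fetus 632, 0.11 with slide as a block, 0.0832 with median centring), SLC2A2 (0.47 with array weights, 0.10 without fetus 632) and GALT (0.11 with array weights). In MSLW they were GALT (0.0554 with slide as a block, 0.0292 with array weights) and SLC2A5 (-0.0679 with quantile normalization, -0.0210 with median centring, -0.0557 with slide as a block, -0.12 with array weights). For SLC2A5 they were 0.00220 (authors' values) and 0.0277 (median centring) in LWMS, and 0.0355 (normexp), 0.00703 (authors' values) and 0.0616 (without fetus 632) in the mean. With array weights MS minus LW of GALK1 at day 110 was 0.13 and of KHK at day 90 was -0.10, the latter -0.00804 with median centring. The call of SLC2A1 in MS was lost without the filter (adjusted p = 0.0119), with purebred fetuses alone (adjusted p = 0.0461) and with array weights (0.53, adjusted p = 0.0858).

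The replicate numbers follow accession order and pair no fetuses, so none were paired by number. Arrays of different groups shared slides, and slide was fitted as a block only as an alternative. Signal near background limits SLC2A3, and litters, unknown here, limit every p-value.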
